A study of Homo sapiens with 4 samples.

Results

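MARK2 is a kinase of the PAR-1/MARK family, and its mRNA was examined together with 8 related genes in U87MG cells, an established human glioblastoma line, after silencing of caspase-2. The 9 genes are the 4 MARK kinases (MARK1, MARK2, MARK3 and MARK4), their activating kinase STK11, the substrate MAPT, and PARD3, PARD6B and PRKCI of the PAR polarity complex. MARK2 was chosen by its decrease on these same arrays, where it belongs to the list of lower genes that the study made. Its own values, intervals included, are therefore a description of these arrays and support nothing about the gene. The other 8 were chosen as its relatives in sequence or function. Each of the 9 has 1 probe set, a set of short probes spread over its transcripts, which carries its symbol alone in the platform annotation. These are 9 of 19158 probe sets with 1 gene symbol and of 32321 in all.

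The experiment holds 4 Affymetrix arrays, 2 from cells transfected with a control siRNA and 2 from cells transfected with an siRNA against CASP2. By their titles the 2 arrays of a group are biological replicates. No agent other than the transfected siRNA is named for either group. The labels name Dharmacon as the supplier of the oligos, and the control that the methods list under that supplier is a mutated form of the CASP2 oligo. The sources used here do not give the time between transfection and extraction of the RNA.

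MARK kinases phosphorylate microtubule-associated proteins such as tau, the product of MAPT, which loosens these proteins from microtubules. They are activated by phosphorylation of the activation loop by LKB1, the product of STK11, which acts in a complex with a STRAD pseudokinase and MO25 (CAB39). In polarized cells the MARK kinases and the complex of PAR3, PAR6 and atypical PKC occupy opposite cortical domains. Atypical PKC phosphorylates MARK kinases and displaces them from the membrane, and MARK kinases phosphorylate PAR3, which is then bound by 14-3-3 proteins.

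The targeted gene was examined first. CASP2 had log2 values of 10.74 and 10.69 on the control arrays and 8.79 and 8.52 on the silenced arrays, which is 4.17-fold less mRNA. The level of the targeted gene was thus low on the arrays labelled as silenced. Levels of different probe sets cannot be compared, so the presence of marker genes was not judged, and each marker list was followed between arrays by the sum of its linear values. For genes of mesenchymal cells and glioma lines the sum ranged from 39313 to 40959 in controls and from 41034 to 42652 in silenced cells. For astrocyte genes it was 2024 to 2210 and 2376 to 2383, and for immune genes 5084 to 5150 and 4801 to 4949. In these 3 lists the groups were apart, and their part in the results was not tested. Groups apart were common for single probe sets as well (15.1% as lower and 14.5% as higher). A linear sum gives most weight to the probe sets with the highest values, so it does not stand for the whole list. These were GJA1 for the astrocyte genes (log2 fold change 0.19) and CD68 for the immune genes (-0.072). In the mesenchymal list they were VIM (-0.050) and CD44 (-0.0040), which changed against the direction of the sum. Below 0 were 3 of 7 probe sets in the mesenchymal list, 1 of 6 in the astrocyte list and 2 of 5 in the immune list. The groups overlapped for neuronal genes (741 to 767 and 764 to 770), oligodendrocyte genes (1155 to 1213 and 1194 to 1220) and endothelial genes (273 to 275 and 267 to 299). All arrays hold bulk RNA of the cultured line U87MG, so these lists do not count separate cell types. Fewer cells that express a gene and less RNA per cell cannot be told apart. Between the 2 silenced arrays the standard deviation of the difference over all probe sets was 0.348 on the log2 scale, against 0.205 between the 2 controls.

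MARK2 had log2 values of 9.29 and 9.21 on the control arrays and of 8.80 and 8.52 on the silenced arrays. Both silenced arrays lay below both controls, and the silenced array of replicate 2 lay lowest. The control mean was 9.25 ± 0.051 (SD, n = 2) and the silenced mean 8.66 ± 0.20 (SD, n = 2). Their difference was -0.59 on the log2 scale, with a 95% interval from limma of -0.94 to -0.24 that measures the spread of the arrays and is no test, or 1.504-fold less mRNA. The silenced arrays lay 0.45 and 0.73 below the control mean on the log2 scale, so the size of the decrease differed between them by more than the distance between the controls, which was 0.073. These values chose the gene.

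The study called a gene lower at a fold above 1.5 with an unadjusted p under 0.05. Under limma, a linear model whose estimate of the spread of a probe set is moderated by that of the others, 26 probe sets with 1 symbol met both conditions, and among them the decrease of MARK2 was the smallest. The next inside the limit were RBM45, an RNA-binding protein (1.51-fold), and DENND6A, a regulator of Rab GTPases (1.52-fold). Just outside it lay SEMA3A, a secreted guidance cue (1.498-fold), and PTPN22, a tyrosine phosphatase (1.497-fold). The position of MARK2 relative to the limit depended on single arrays. The decrease was 1.36-fold without CASP2 siRNA replicate 2 and 1.47-fold without control siRNA replicate 1, both under the limit, and 1.66-fold without CASP2 siRNA replicate 1 and 1.54-fold without control siRNA replicate 2. It was also under the limit, at 1.48-fold, after another quantile normalization, and at 1.497-fold as a ratio of linear group means. By the methods' t-test in two-sided form, MARK2 did not meet the call at all.

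**Figure D1:**
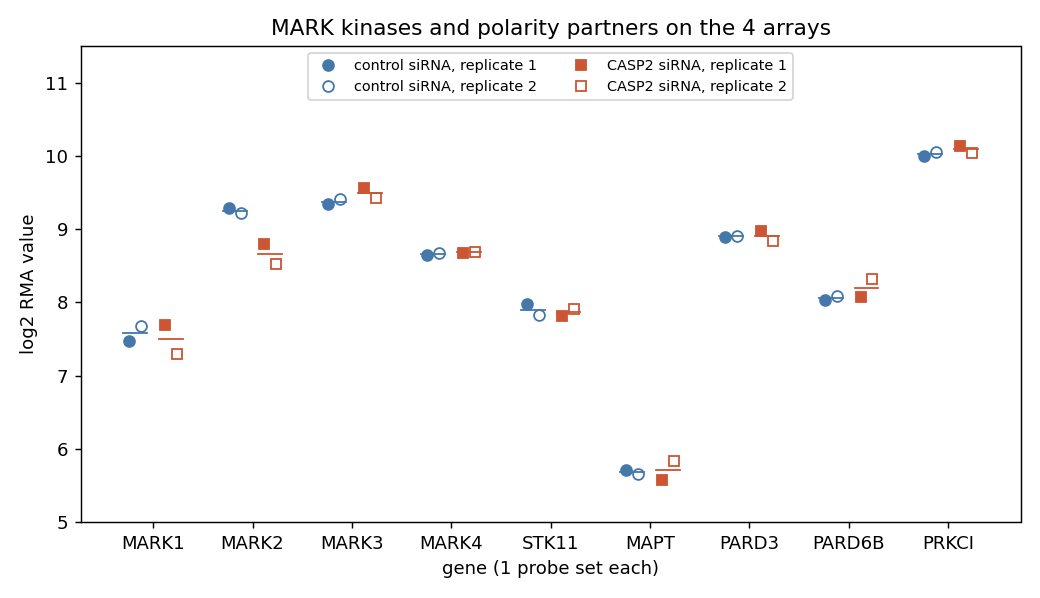
Log2 RMA value (y axis) of each gene (x axis) on the 4 arrays; controls are circles, silenced arrays are squares, replicate 1 is filled, replicate 2 is open, and short lines give the group means. The silenced arrays of MARK2 (8.80 and 8.52) lie apart from its controls (9.29 and 9.21), while those of the other genes overlap or, for MARK3 and MARK4, lie slightly above the controls. Levels of different genes are not comparable, since probes differ in brightness.

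The intervals of the 3 paralogs all held 0 and lay above the value of MARK2. That value chose MARK2, so the comparison is a description and was not tested. MARK3, a broadly expressed member of the family, had log2 values of 9.34 and 9.41 with the control siRNA and of 9.55 and 9.43 with the CASP2 siRNA. Both silenced arrays lay above both controls, by a narrow margin for replicate 2. Its mean difference was 0.12 on the log2 scale (SE 0.10, 95% interval -0.15 to 0.39), and it was 0.052 without CASP2 siRNA replicate 1 and 0.18 without CASP2 siRNA replicate 2.

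MARK4, which is also found at centrosomes, had log2 values of 8.65 and 8.67 with the control siRNA and of 8.68 and 8.69 with the CASP2 siRNA. The groups did not overlap here either, but all 4 arrays lay within a distance smaller than the standard error of the fit. The log2 fold change was 0.025 (SE 0.089, 95% interval -0.21 to 0.26).

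MARK1 had log2 values of 7.47 and 7.68 with the control siRNA and of 7.70 and 7.29 with the CASP2 siRNA. The silenced arrays enclosed both controls, and MARK1 varied most among the 9 genes within the silenced group. Its log2 fold change was -0.083 with the widest interval of the 9 genes (SE 0.18, -0.55 to 0.39). Without CASP2 siRNA replicate 2 it was 0.12 and without CASP2 siRNA replicate 1 it was -0.29, so its direction was that of whichever silenced array remained.

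STK11 encodes LKB1, the kinase upstream of the whole family. Its log2 values were 7.98 and 7.83 with the control siRNA and 7.81 and 7.92 with the CASP2 siRNA. The groups overlapped, and the log2 fold change was -0.038 (SE 0.11, 95% interval -0.33 to 0.25). With either control siRNA replicate 1 or CASP2 siRNA replicate 1 left out, the sign turned, to 0.037 and 0.015.

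MAPT encodes tau, which is best known from neuronal axons. It had log2 values of 5.71 and 5.66 with the control siRNA and of 5.58 and 5.84 with the CASP2 siRNA. The silenced arrays again enclosed the controls, and MAPT lay below the median of all probe sets, where background can compress folds. The log2 fold change was 0.024 (SE 0.13, 95% interval -0.31 to 0.36), and its sign turned without either control siRNA replicate 2 (-0.0021) or CASP2 siRNA replicate 2 (-0.11).

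PARD3 encodes the scaffold of the PAR complex. Its log2 values were 8.90 and 8.91 with the control siRNA and 8.98 and 8.83 with the CASP2 siRNA, on both sides of the controls. Its log2 fold change was 0.0012 (SE 0.10, 95% interval -0.27 to 0.27). It was -0.0059 without control siRNA replicate 1 and -0.071 without CASP2 siRNA replicate 1.

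PARD6B, an adaptor that joins PAR3, atypical PKC and CDC42, had log2 values of 8.03 and 8.09 with the control siRNA and of 8.07 and 8.31 with the CASP2 siRNA. Only the silenced array of replicate 2 stood above both controls. Its log2 fold change of 0.13 (SE 0.12, 95% interval -0.20 to 0.45) was 0.0063 without that array.

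PRKCI, the iota form of atypical PKC and the kinase of the complex, had log2 values of 10.00 and 10.05 with the control siRNA and of 10.14 and 10.04 with the CASP2 siRNA. The groups overlapped, and the log2 fold change was 0.063 (SE 0.097, 95% interval -0.19 to 0.32). It was 0.012 without CASP2 siRNA replicate 1 and 0.11 without CASP2 siRNA replicate 2.

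**Figure D2:**
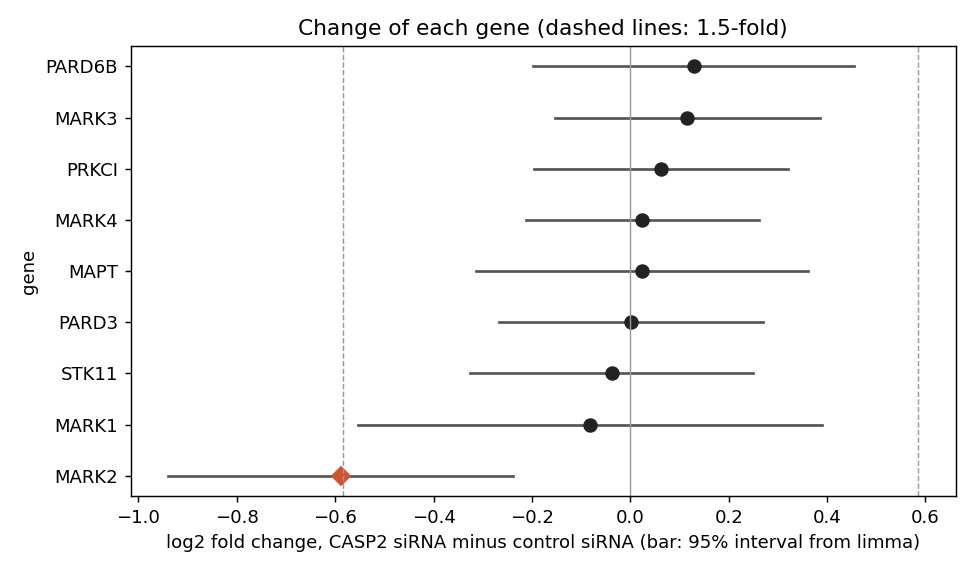
Change between silenced and control cells (x axis, log2 fold change) of each gene (y axis), with 95% intervals from limma as bars; dashed lines mark 1.5-fold and the diamond is MARK2, whose value chose it. The 8 other genes lie between -0.083 and 0.13, each with an interval that holds 0 and lies above the value of MARK2 (-0.59).

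In order of their log2 fold changes the genes ran from PARD6B through MARK3, PRKCI, MARK4, MAPT, PARD3, STK11 and MARK1 to MARK2. Neighbours in this order had overlapping intervals, that of MARK2 and MARK1 included. The value of MARK2 itself, which chose it, lay below the intervals of all 8 others, and this was not tested. The median of these 8 was 0.024, beside 0.0022 over all probe sets, with 6 values above 0 and 2 below. None of the 8 met the call of the study under limma, which 0.362% of all probe sets met as lower and 0.331% as higher. MARK2 was the 1 gene of 9 that met it, by the contrast that chose it, and 0 of the 9 met it as lower by the methods' t-test as computed here. Nor did any of the 8 pass an adjusted p of 0.05 by limma (Benjamini-Hochberg, over all probe sets). For each of the 8 it was 0.9999, and 0 of 32321 probe sets passed (0%), CASP2 included, against 979 at an unadjusted p under 0.05. Their 95% intervals excluded a 1.5-fold decrease for all 8 genes, narrowly for MARK1.

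Of the 8 genes, 2 had both silenced arrays above both controls and none had both below them. Over all probe sets the corresponding shares were 14.5% and 15.1%. The 2 genes were MARK3 and MARK4, with a change about as large as its standard error for MARK3 and smaller than it for MARK4. The silenced arrays differed more than the controls for 7 of the 9 genes, as they did for 70.1% of all probe sets. The silenced array of replicate 1 was the higher one for MARK1, MARK2, MARK3, PARD3 and PRKCI, and that of replicate 2 for MARK4, STK11, MAPT and PARD6B. These are 5 and 4 of the 9, and over all probe sets 53.4% were higher on replicate 1.

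The change of MARK2 was also set against that of each other gene within the same array. This removes an offset that is equal over a whole array, but not a shift that depends on the level. The log2 value of MARK2 minus that of MARK3 changed by -0.70 between control and silenced cells. For MARK4 the same change was -0.61 and for MARK1 it was -0.51. For STK11 it was -0.55, for MAPT -0.61, for PARD3 -0.59, for PARD6B -0.72 and for PRKCI -0.65. In all 8 pairs both silenced arrays lay below both controls, a direction that follows from the choice of MARK2 and was not tested. With 2 arrays against 2, an exact two-sided permutation test of such a difference cannot give a p below 0.333.

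A probe set reads a gene across its transcripts and does not separate isoforms. The annotation ties the MARK2 probe set (7940798) to 5 RefSeq mRNAs, that of MARK1 (7909841) to 4, that of MARK3 (7977077) to 5 and that of MARK4 (8029642) to 2. PARD3 (7933010) and MAPT (8007828) have 11 and 8, while STK11 (8024204), PARD6B (8063410) and PRKCI (8083854) have 1 each. No further probe set is named for any of the 9, so the decrease of MARK2 could not be compared with a second measurement of the same gene.

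The genes whose pattern lay nearest to that of MARK2 were sought among all probe sets with 1 symbol, by the Euclidean distance between log2 values taken relative to the control mean, over the 4 arrays. They were SEMA3A (distance 0.032), LCP1, an actin-bundling protein (0.040), PTPN22 (0.040), MIEF1, a receptor of mitochondrial fission (0.048), and ST20 (0.080). Their log2 fold changes ranged from -0.61 for LCP1 to -0.54 for ST20. In each of them the silenced array of replicate 2 was the lowest of the 4, as for MARK2. The upper quartile of all values on that array was 8.58, beside 8.66 and 8.68 on the controls and 8.69 on CASP2 siRNA replicate 1. The part of this difference in the pattern was not tested. Since the distance includes the change itself, these genes had to have changes near that of MARK2. LCP1 is also in the study's list of lower genes. With log2 fold changes from -0.083 to 0.13, none of the 8 other genes could be among them, so their absence carries no information.

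**Figure D3:**
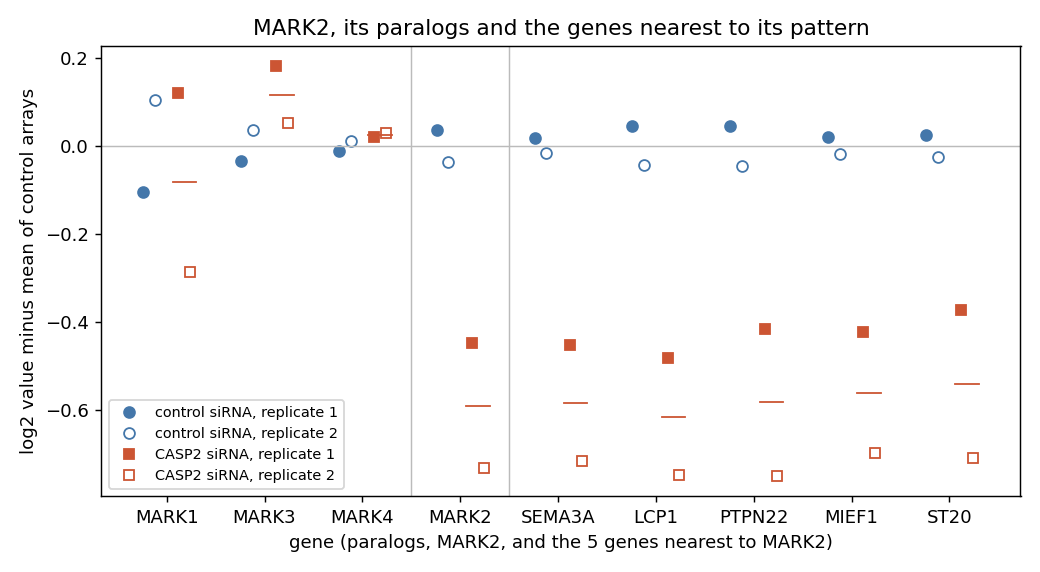
Log2 value relative to the control mean (y axis) for the paralogs, for MARK2 and for the 5 genes nearest to its pattern (x axis); controls are circles, silenced arrays are squares, replicate 1 is filled, replicate 2 is open and short lines give the silenced means. For MARK2 and its 5 nearest genes replicate 2 of the CASP2 siRNA lies lowest (-0.73 for MARK2), as it does for MARK1 (-0.29) but not for MARK3 or MARK4.

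The surrounding pathway was examined through 9 gene lists, which hold 63 measured genes and 65 probe sets, the 9 genes included. Of these probe sets 31 were below 0, with a median log2 fold change of 0.0080. The call of the study was met under limma by 2 as lower and by 0 as higher. The 2 were MARK2 and CDC42BPB, both from the study's list of lower genes and thus not independent evidence. None passed the adjusted limma test. At an unadjusted limma p under 0.05 without a minimum fold 5 of the 65 were lower and 0 were higher. Over all 32321 probe sets 481 (1.49%) were lower and 498 (1.54%) were higher. The 5 include MARK2 and CDC42BPB, and the lists were chosen with earlier results of these data known. The count is therefore a description only. The other three of the 5 were DLG5, SNRK and YWHAH. Both silenced arrays lay below both controls in 11 and above them in 14, which is 16.9% and 21.5%, beside 15.1% and 14.5% of all probe sets.

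The 5 genes of the upstream LKB1 complex have 6 probe sets, all with overlapping groups. Most probe sets overlapped, since 15.1% of all lay apart as lower and 14.5% as higher. The log2 fold changes ran from -0.15 for CAB39L, a MO25 scaffold, to 0.094 for one of the STRADB probe sets. The median was -0.031.

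Among the other kinases activated by LKB1, 9 genes were measured, with a median log2 fold change of 0.032. SNRK, an AMPK-related kinase, had log2 values of 8.31 and 8.37 with the control siRNA and of 7.93 and 7.88 with the CASP2 siRNA. Both silenced arrays stood well below the controls and close to each other, with a log2 fold change of -0.44 (95% interval -0.68 to -0.19) that stayed between -0.47 and -0.41 with any array left out. NUAK2, another AMPK-related kinase, had the opposite sign, at 0.40 (-0.044 to 0.85), and was at 0.23 without control siRNA replicate 2 and at 0.58 without control siRNA replicate 1. BRSK1, a kinase of neuronal polarity, was at 0.15 (-0.096 to 0.39). The catalytic AMPK subunits PRKAA1 and PRKAA2 had 0.031 and 0.032.

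The PAR complex list holds PARD3, PARD6B and PRKCI with their relatives and CDC42, the GTPase that PAR6 binds. None of the 8 probe sets had groups apart, beside 15.1% (lower) and 14.5% (higher) of all probe sets. The median log2 fold change was 0.035. PARD6A and PARD6G, the paralogs of PARD6B, had 0.048 and 0.021, PRKCZ, the zeta form of atypical PKC, had 0.064 and CDC42 had -0.017. PARD3B lay lowest, at -0.21, with an interval of -0.71 to 0.30.

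The Scribble and Crumbs modules act beside the PAR complex in the definition of membrane domains. DLG5, a scaffold of the Discs large family, had log2 values of 9.19 and 9.24 with the control siRNA and of 8.69 and 8.66 with the CASP2 siRNA. The 2 silenced arrays were almost equal and far below the controls, a log2 fold change of -0.54 (95% interval -0.78 to -0.30) that lay between -0.56 and -0.52 with any array left out. It thus missed the 1.5-fold limit, with an interval narrower than that of MARK2. Its relative DLG1 was at 0.057 (-0.19 to 0.31) and PATJ, a scaffold of the Crumbs complex, at -0.17 (-0.46 to 0.13). SCRIB had -0.10, and the median of the 10 probe sets was 0.023.

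**Figure D4:**
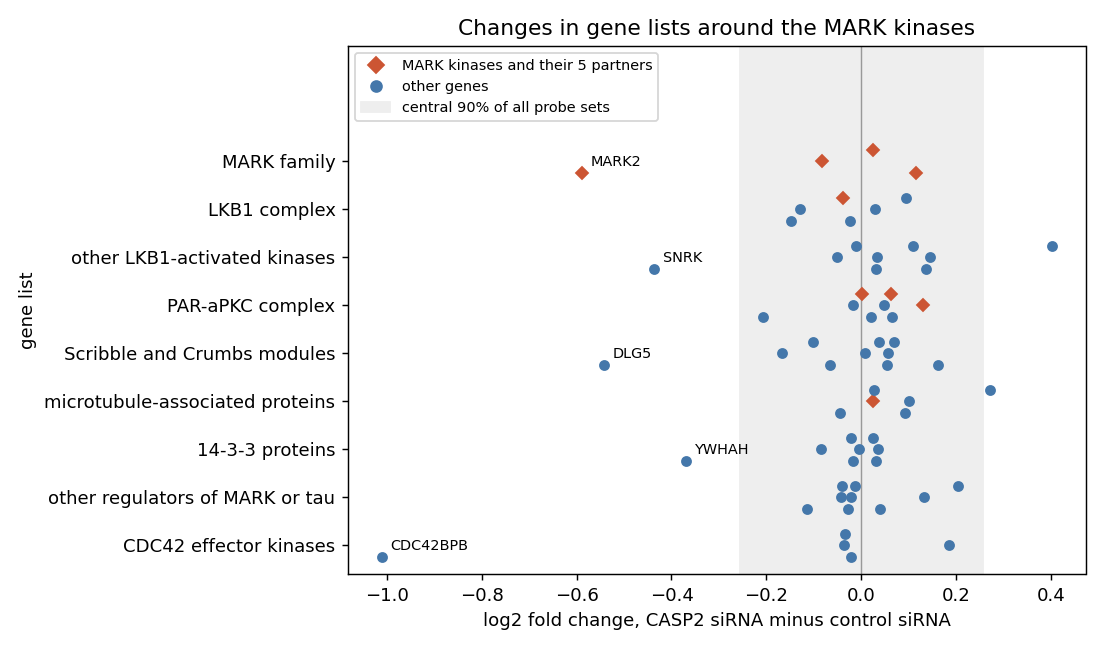
Change between silenced and control cells (x axis, log2 fold change) of every probe set in the 9 gene lists (y axis, spread vertically for legibility); diamonds are the 4 MARK kinases and their 5 partners, circles are other genes, and the shaded band is the central 90% of all probe sets. Names mark the 5 probe sets with an unadjusted limma p under 0.05, all of them lower, from CDC42BPB at -1.01 to YWHAH at -0.37.

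Of the microtubule-associated proteins, which include the substrates of the MARK kinases, none passed. MAP1A had a log2 fold change of 0.10 (95% interval -0.14 to 0.34), MAP1B of 0.092 (-0.17 to 0.36) and MAP4 of 0.026 (-0.21 to 0.26). Each had both silenced arrays above both controls, which was the condition for naming these 3 of 6. Over all probe sets 14.5% lay so, and the change of MAP4 was smaller than its standard error (0.089). MAP2 was at 0.27 with overlapping groups. The median of the 6 was 0.059.

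The 14-3-3 proteins bind targets that MARK kinases have phosphorylated. YWHAH, the eta form, had log2 values of 10.96 and 10.91 with the control siRNA and of 10.65 and 10.48 with the CASP2 siRNA. Both silenced arrays were below the controls, and the log2 fold change was -0.37 (95% interval -0.65 to -0.085). The other members were near 0, as for YWHAZ at 0.035 (-0.20 to 0.27) and YWHAE at -0.084 (-0.35 to 0.18) in one probe set and -0.0048 in the other.

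Among further regulators of MARK or tau, no value passed. USP9X, a deubiquitinase that binds MARK4, had a log2 fold change of 0.20 (95% interval -0.056 to 0.46), CDK5R1, the activator of the tau kinase CDK5, had 0.13 (-0.13 to 0.39) and TAOK3, a kinase of the TAO family, had -0.11 (-0.37 to 0.14). The tau kinases GSK3A and GSK3B had -0.029 and 0.040.

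The list of CDC42 effector kinases holds the largest change within the 9 lists. CDC42BPB, a kinase of actomyosin contraction that CDC42 recruits, had log2 values of 9.75 and 9.77 with the control siRNA and of 8.78 and 8.71 with the CASP2 siRNA. The groups lay far apart compared with the distance between their replicates. CDC42BPB thus had a log2 fold change of -1.01 (95% interval -1.25 to -0.77), which describes a gene that the study picked on these arrays. Its paralogs CDC42BPA and CDC42BPG were at -0.021 (-0.27 to 0.23) and -0.036 (-0.40 to 0.33), and PAK2, another kinase bound by CDC42, was at 0.19 (-0.12 to 0.49). Like MARK2, CDC42BPB was chosen as lower on these arrays, so its direction was fixed by that choice. The measured paralogs of both had intervals that held 0, as most probe sets did. Only 979 of all 32321 had an unadjusted limma p under 0.05. The differences between the listed genes and their paralogs were not tested.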

How the data were processed

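U87MG cells with a control siRNA or a CASP2 siRNA were measured on 2 arrays each (GeneChip Human Gene 1.0 ST, total RNA), grouped by the titles in the labels. The authors applied RMA; the sources used here give no version. The deposited table thus holds a log2 value for each probe set on each array. RMA forces probe intensities of all arrays into the same distribution, so a shift of all genes is largely removed, and folds near background are compressed. The number of arrays limits the precision.

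Gene names came from the platform annotation, with symbols updated by gene ID through RefSeq (assembly GRCh38.p14) for 19128 of the 19158 with 1 symbol. The 1388 with several and the 11775 without any were fitted but not named. In R 4.3.3, limma 3.58.1 (functions lmFit and eBayes) compared CASP2 siRNA with control siRNA by two-sided tests on all 32321 probe sets, with p-values adjusted by Benjamini-Hochberg over all of them. There were 2 residual and 2.47 prior degrees of freedom. Intervals are 95% intervals from this fit. The fit was tested on simulated data. P-values rest on the spread among these few arrays.

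The members, the gene lists and the tests were chosen with earlier results of these data known. Named are the members, CASP2, up to 3 genes per list that passed the call of the study or had groups apart, the 5 patterns nearest to MARK2, and 2 genes on each side of the 1.5-fold limit. Other pathway genes, and the comparisons between paralogs, were named after their values were seen. SIK1, PAK1 and PAK3 have no probe set of their own in the annotation and are not analysed here. Alternatives were the methods' t-test, with the standard deviation raised to its median, a mean-dependent and robust prior in eBayes, quantile normalization of the summarized values, omission of probe sets in the lower quartile, linear group means, the replicate number as a block, no minimum fold, the brightest probe set per gene, and each array left out.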

Additional observations from a re-analysis of the deposited data

How the results depend on the processing

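The log2 fold change of MARK2 was -0.59, ranged from -0.73 to -0.45 with each array left out and from -0.59 to -0.56 under the other settings. The median over the 8 other genes ranged from 0.022 to 0.047 with each array left out. The 1 gene of the 9 past the call of the study (MARK2, lower) became 0 after another quantile normalization, by the methods' t-test and at an adjusted p under 0.05, and 0 to 1 with each array left out. Over the pathway lists the 2 lower calls became 1 after quantile normalization and by the methods' t-test, 5 with no minimum fold, 0 at an adjusted p under 0.05 and 1 to 2 with each array left out. Over all probe sets the methods' t-test called 37 lower and 35 higher, against 117 and 107 by limma. Higher calls were 0 for the 9 genes and for the lists under every setting tried. With each array left out the sign turned for MARK1 (log2 fold change of -0.29 to 0.12), STK11 (-0.11 to 0.037), MAPT (-0.11 to 0.16) and PARD3 (-0.071 to 0.073), but not for MARK3, MARK4, PARD6B and PRKCI. The cause was not tested. Deviations from the group means of arrays with the same number correlated with r = 0.020, so the numbers were not taken to pair the arrays. With the replicate block the change of MARK2 was -0.59, and 160 probe sets were called lower and 142 higher, without another call among the 9 genes or the lists. The same settings for CASP2, the 17 further pathway genes named by rule and the genes near MARK2 were chosen after seeing the data. They turned no sign for the probe sets by which these genes were named. The groups of those probe sets did not overlap, so leaving out an array could not turn it. The second YWHAE probe set, with overlapping groups, ran from -0.024 to 0.015. Of all 56 pathway probe sets outside the 9 genes, 30 turned sign with an array left out, among them CAB39L (-0.50 to 0.20), PARD3B (-0.45 to 0.039), SCRIB (-0.21 to 0.0067), CDC42 (-0.096 to 0.061), PARD6A, PARD6G, PRKCZ, PRKAA1, PRKAA2, CDC42BPA and CDC42BPG.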
